A study of Mus musculus with 2 samples.

Results

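Described here are 42 genes of NF-kB targets, cytokines and chemokines, together with subunits and inhibitors of NF-kB. The array's annotation names 18193 genes, and 2 of the 42 are not among these. The 42 were taken as a list of symbols and comprise 27 secreted cytokines and chemokines, 9 intracellular genes of the NF-kB system and 6 other targets. Parental CMT-93, a mouse rectal carcinoma line, was compared with CMT93-PM1, a primary culture of CMT-93 cells recovered from lung tumours. For the latter, cells were injected into the tail vein of 6-week-old female C57BL/6 mice and tumours were taken 8 weeks later. Both were grown in the same serum-containing medium, and neither is labelled with a genotype change or a drug. CMT93-PM1 is 1 culture, how many mice or tumours it came from is not stated in the labels, and a primary culture of tumour tissue can still hold cells of the host. Each line was measured once, with 6 ug of total RNA on 1 array, so no difference below has a replicate error, a test or a p-value, and effects of culture or hybridization on an array and the difference between the lines cannot be told apart.

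NF-kB is a family of transcription factors, among them Rela, Relb and the precursors Nfkb1 and Nfkb2, held inactive in the cytoplasm by inhibitor proteins of the IkB group. Signals from Toll-like, interleukin 1 and tumour necrosis factor receptors lead to degradation of the inhibitors. The factors then enter the nucleus and switch on cytokines and chemokines that call in leukocytes, together with inhibitors such as Nfkbia and Tnfaip3 that end the response. In gut epithelium the pathway serves defence against bacteria, and tumour cells can use the same secreted signals to shape their surroundings.

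Signals are log2 values of 1 probe set per gene, the one with the highest mean of both arrays, and a signal compares the arrays for that probe set and does not rank genes. The floor was the 40th percentile of each array (parental 4.69 log2, lung-recovered 4.59 log2), and a gene was measured if it exceeded the floor on at least 1 array. Of the 42 genes, 35 were measured, 5 were at the floor on both arrays (Il1a, Cxcl12, Cxcl14, Ptgs2 and Tlr2), and Nfkb1 and C3 have no probe set named for them alone here. Just inside the limit, the chemokine gene Ccl9 read 4.62 and 5.04, and just outside it Cxcl12 read 4.52 and 4.36. Probe sets of 1 gene above the floor on both arrays gave log2 ratios with a median SD of 0.17 over 5782 genes, which is a technical spread within these arrays. Log2 ratios are lung-recovered minus parental.

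Past 2-fold, members lower in the lung-recovered line outnumbered those that were higher, although 21 of the 35 measured had ratios above 0 and 14 below. Of the 35 measured genes, 9 were at least 2-fold lower, while 2.55% of all 13332 measured genes were. Another 2 were at least 2-fold higher, against 4.42% of all measured genes, and 24 lay within 2-fold. At 3-fold 4 members were lower, beside 0.975% of all measured genes, and 2 higher, beside 1.43%. At 1.5-fold 10 were lower, beside 6.95%, and 5 higher, beside 11.5%. Those past 2-fold and lower were Il6, Ccl2, Cxcl1, Cxcl5, Cxcl15, Nfkbiz, Lcn2, Saa3 and Cd14, and those higher were Csf1 and Tnfaip2. The median log2 ratio of the 35 was 0.07, next to 0 over all measured genes, and their mean was -0.21. Of the 35, 3 were at the floor on the parental array only and 2 on the lung-recovered array only, and these have bounds in place of ratios. In bulk RNA, fewer cells of a type and less RNA per cell cannot be told apart.

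**Figure D1:**
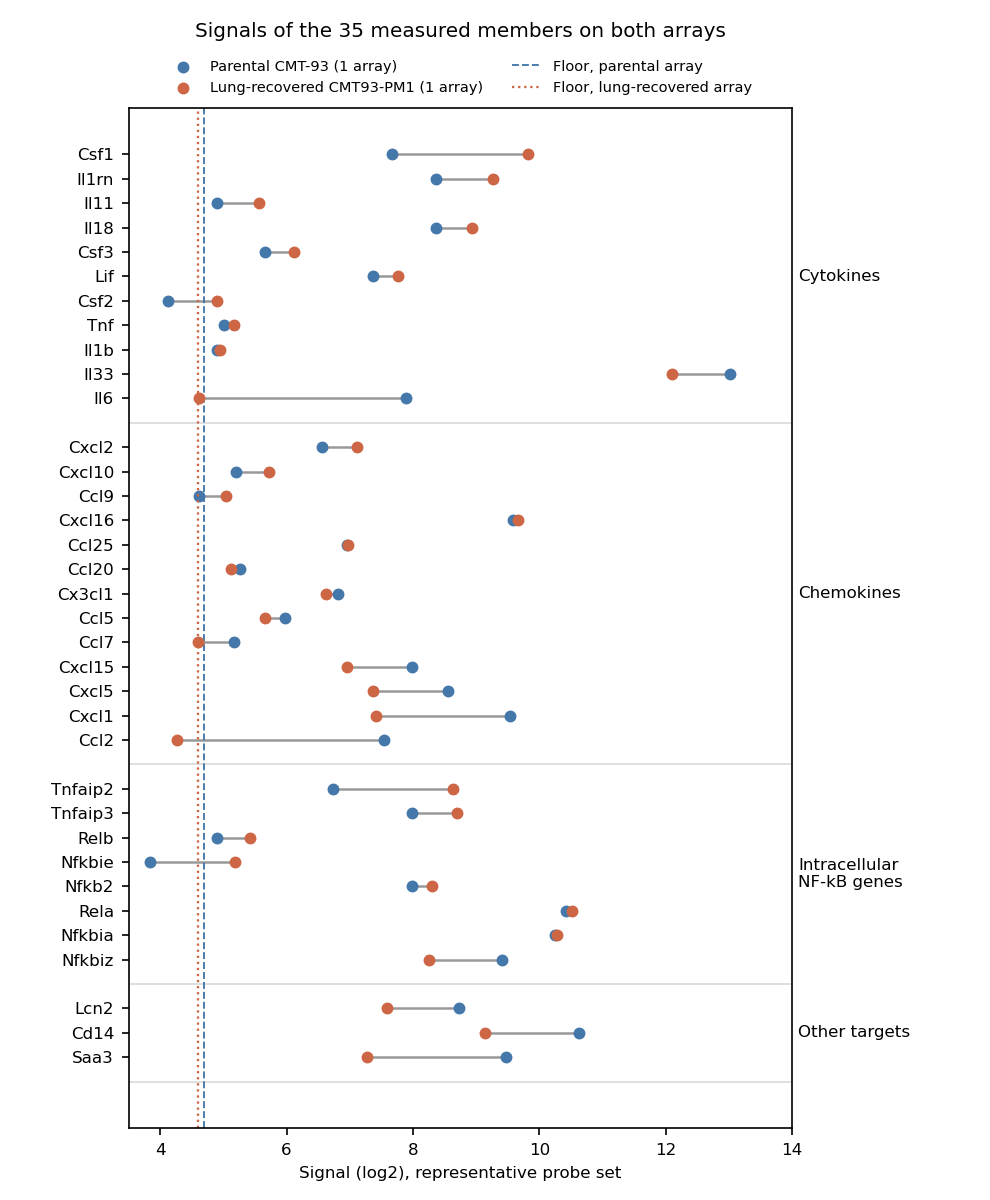
Log2 signal (horizontal axis) of each of the 35 measured genes, with a blue point for parental CMT-93 and an orange one for CMT93-PM1, joined by a line and sorted by log2 ratio within 4 groups; the vertical lines are the array floors of 4.69 and 4.59. The longest lines to the left are those of Il6 and Ccl2, which end at 4.61, just above the floor of the lung-recovered array, and at 4.26, below it, and the longest to the right are those of Csf1 and Tnfaip2.

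Among the 12 cytokines, the interleukin 6 gene and the macrophage growth factor gene Csf1 stood furthest apart, in opposite directions. Il6, which encodes a cytokine of the acute-phase response, read 7.89 in parental cells and 4.61 after recovery from lung, 9.71-fold lower. The second value is just above the floor, and a floor set at the 60th percentile gave a log2 ratio of -1.74 in place of -3.28. In each pair of signals below, the parental value comes first. Csf1, which encodes the ligand on which macrophages depend for survival and growth, read 7.67 and 9.82, 4.44-fold higher. Its other probe sets gave 2.99-fold (6.18 and 7.76), 1.77-fold (5.98 and 6.80) and at least 3.56-fold (4.30 and 6.52), so all 4 were higher in the lung-recovered line. All of them carry a suffix for shared or alternative transcripts, so Csf1 has no value without such probe sets. Across the 11 measured cytokines the median log2 ratio was 0.41, with 9 above 0 and 2 below.

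In the interleukin 1 family, the antagonist and the alarmin had ratios of opposite sign, both within 2-fold by their representative probe sets. Il1rn, which encodes the receptor antagonist, read 8.36 and 9.27, a log2 ratio of 0.91, and its other probe sets gave 1.05 (8.24 and 9.29, past 2-fold) and 0.59 (6.42 and 7.01). After scaling to equal medians its log2 ratio was 1.01. Il33, which encodes a nuclear alarmin of epithelial cells, read 13.02 and 12.10, a log2 ratio of -0.92 by its only probe set. Il18, which encodes a cytokine matured by caspases, read 8.37 and 8.93. Only the interleukin 1 genes Il1b and Il1a were dim: Il1b read 4.90 and 4.94, beside the floor, and Il1a was below it on both arrays.

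The remaining interleukin 6 relatives and growth factors did not follow Il6. Il11 read 4.89 and 5.56 and Lif, whose product signals through the same receptor chain as Il6, read 7.36 and 7.77, with a dimmer Lif probe set at 5.16 and 5.31. Csf3, the granulocyte growth factor gene, read 5.66 and 6.12, and Csf2 read 4.13, below the floor, and 4.89, a bound of at least 1.15-fold higher. Tnf, which encodes the prototype activator of the pathway, read 5.01 and 5.17, near the floor in both lines. All of these had positive log2 ratios, between 0.16 for Tnf and 0.67 for Il11.

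Of the 13 measured chemokines, 4 were at least 2-fold lower, beside 2.55% of all measured genes, and 0 higher, beside 4.42%. Their median log2 ratio was -0.18. Ccl2, which encodes the main monocyte attractant, read 7.54 and then 4.26, below the floor, at least 7.73-fold lower, or -1.39 log2 when the floor was set at the 60th percentile. Its relative Ccl7 read 5.16 and 4.59, the floor value itself, a bound of at least 1.49-fold lower. Cxcl1, which encodes a neutrophil attractant, read 9.53 and 7.42, 4.32-fold lower, and its other probe sets gave 3.34-fold (8.64 and 6.90) and 2.95-fold (8.51 and 6.95) lower. Cxcl5, another neutrophil attractant, read 8.55 and 7.37, 2.27-fold lower. Cxcl15, a lung-associated member of the same group, read 7.98 and 6.96, 2.03-fold lower, and its dimmer probe set (5.75 and 4.97) gave 1.72-fold. It is the member closest to the 2-fold limit, and its log2 ratio was -0.92 after scaling to equal medians and -0.90 by the median over probe sets.

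Chemokines of other kinds differed little between the arrays. The membrane-bound ligand genes Cxcl16 (9.59 and 9.66) and Cx3cl1 (6.81 and 6.63) had log2 ratios of 0.07 and -0.18, and second probe sets gave 0.35 for Cxcl16 (8.63 and 8.98) and -0.27 for Cx3cl1 (5.70 and 5.43). Ccl25, the gut-homing chemokine gene, read 6.95 and 6.97, and its other probe set 6.76 and 6.36. Ccl20, which attracts cells bearing Ccr6, read 5.26 and 5.12, and Ccl5 read 5.97 and 5.65. Cxcl10, an interferon-induced lymphocyte attractant, read 5.20 and 5.72. Cxcl2, which attracts neutrophils as Cxcl1 does, read 6.56 and 7.12 and had the highest log2 ratio of the measured chemokines, 0.56.

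The neutrophil attractant genes lie side by side on mouse chromosome 5, in the order Cxcl5, Ppbp, Pf4, Cxcl3, Cxcl15, Cxcl1 and Cxcl2 by the gene table of GRCm38.p6. Along this row, 3 genes were at least 2-fold lower and 1 at least 2-fold higher, beside 2.55% and 4.42% of all measured genes. Cxcl3 and Cxcl2 lay within 2-fold. The log2 ratios were -1.18 for Cxcl5, at least 1.45 for the platelet-type chemokine gene Ppbp (4.42, below the floor, and 6.14), 0.47 for Cxcl3 (7.19 and 7.66), -1.02 for Cxcl15, -2.11 for Cxcl1 and 0.56 for Cxcl2, while Pf4 was at the floor on both arrays. The adjacent genes Cxcl1 and Cxcl2 thus had ratios of opposite sign. In the monocyte attractant row on chromosome 11, 2 of 3 measured genes were at least 2-fold lower, Ccl2 and Ccl8 (6.88 and 5.39, 2.81-fold), and Ccl7 had a bound within 2-fold, with Ccl11 and Ccl12 at the floor on both arrays. Ppbp, Cxcl3 and Ccl8 are not on the list of 42 and were read from these rows. The CXC genes are close in sequence, and Cxcl1 probe sets with suffix _s or _x can take up signal of relatives.

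**Figure D2:**
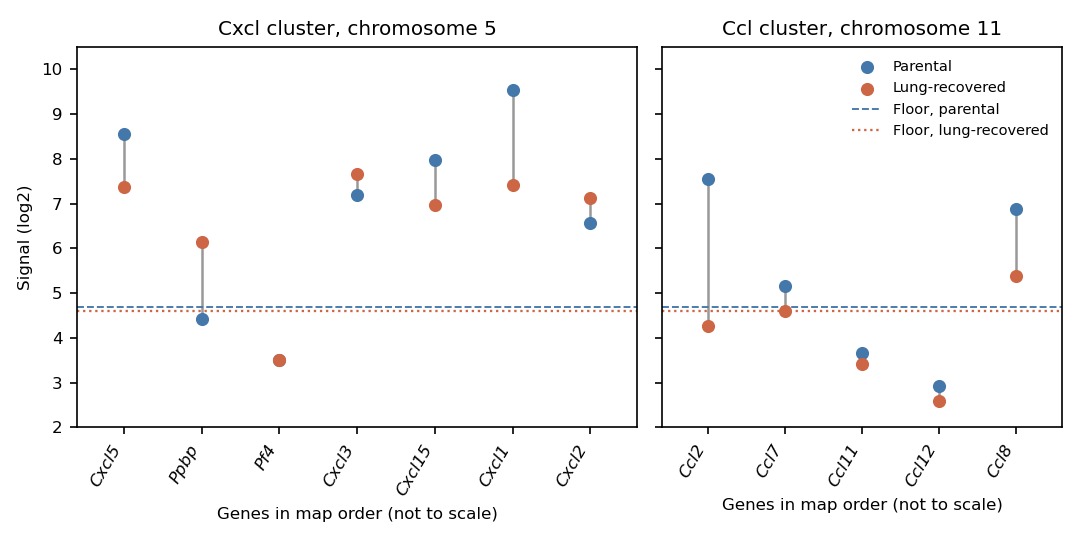
Log2 signal (vertical axis) in parental CMT-93 (blue) and CMT93-PM1 (orange) for the genes of the Cxcl row on chromosome 5 and the Ccl row on chromosome 11, in map order and not to scale; dashed and dotted lines are the floors of 4.69 and 4.59. In the Cxcl row the lung-recovered point lies below the parental one for Cxcl5, Cxcl15 and Cxcl1 and above it for Ppbp, Cxcl3 and Cxcl2, while in the Ccl row it lies below for each gene that was measured.

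The intracellular genes were measured for 8 of 9, and most had small positive ratios. Their median log2 ratio was 0.40, with 7 above 0 and 1 below. In each direction 1 gene passed 2-fold, beside 4.42% higher and 2.55% lower of all measured genes. Rela, the main activating subunit, read 10.43 and 10.52, and Relb, the subunit of the alternative arm, read 4.89 and 5.42. Nfkb2, the precursor of the partner of Relb, read 7.99 and 8.30 by 1 probe set and 7.95 and 7.62 by the other, so its direction is not settled. The subunit genes were all within 2-fold.

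Among the inhibitor genes, only Nfkbiz passed 2-fold, and it was lower. Nfkbia, which encodes the classical inhibitor and is itself an NF-kB target, read 10.25 and 10.28, while its other 4 probe sets had log2 ratios from 0.13 to 0.46. Tnfaip3, the gene of the ubiquitin-editing inhibitor A20, read 7.99 and 8.70, a log2 ratio of 0.71, and its other probe set 0.42 (6.05 and 6.47). Nfkbie read 3.84, below the floor, and 5.18, at least 1.40-fold higher, by a probe set with suffix _s. Its log2 ratio was 1.34 without a floor, and its other probe set was below the floor on both arrays (3.80 and 4.55). Nfkbiz read 9.41 and 8.26, 2.22-fold lower, and its other probe sets gave log2 ratios of -1.76 (8.26 and 6.50) and -1.08 (7.54 and 6.46). Its product is an atypical nuclear member of the inhibitor group that acts as a co-activator at a subset of targets, for which Il6 and Lcn2 are textbook examples. Whether Nfkbiz bears on the signals of its targets in these lines was not tested. Tnfaip2, a target gene induced by tumour necrosis factor, read 6.74 and 8.64, 3.73-fold higher. A second probe set, with suffix _x, gave a log2 ratio of 3.12 (6.08 and 9.20), and a dim probe set without suffix gave -0.10 (5.24 and 5.14).

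Set side by side, the secreted cytokines and chemokines had a median log2 ratio of 0.06 over 24 measured genes and the intracellular genes 0.40 over 8, a difference of -0.34. Of the secreted genes 5 of 24 were at least 2-fold lower and 1 higher, and of the intracellular genes 1 of 8 each way. Among all measured genes 2.55% were lower and 4.42% higher. The secreted group was not uniform. Its cytokine median was 0.41, as high as the intracellular one, and its chemokine median was -0.18. Genes are not replicates of a condition and the ratios within each group ranged from -3.28 to 2.15 and from -1.15 to 1.90, so the difference of medians is a description of these arrays.

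Of the other targets, 3 of 6 were measured and all 3 were at least 2-fold lower, beside 2.55% of all measured genes. Saa3, which encodes an acute-phase serum amyloid protein, read 9.47 and 7.27, 4.59-fold lower. Cd14, the gene of the co-receptor that passes bacterial lipopolysaccharide to Tlr4, read 10.63 and 9.14, 2.81-fold lower. Lcn2, which encodes an iron-siderophore-binding protein of mucosal defence, read 8.73 and 7.59, 2.20-fold lower. Each has 1 probe set, so none has a second reading. Ptgs2, the inducible prostaglandin synthase gene, was below the floor by both of its probe sets, and the Toll-like receptor gene Tlr2 read 3.99 and 3.90, below it as well. Among all 11 members past 2-fold, 6 rest on a single measured probe set, and for the other 5 genes 9 of 10 further probe sets had the same sign and 7 of 10 also passed 2-fold.

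**Figure D3:**
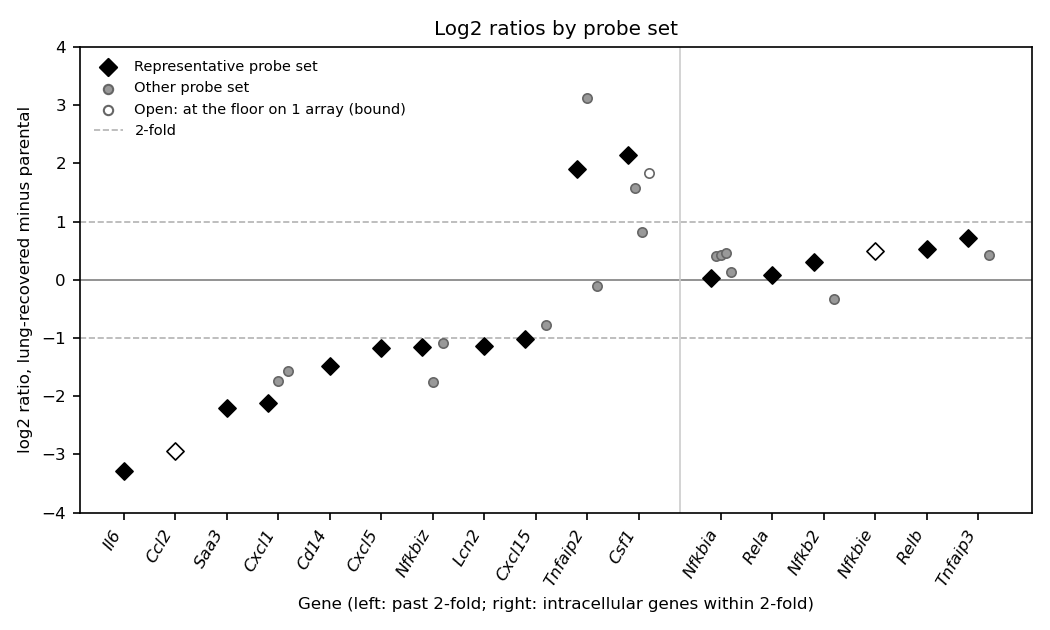
Log2 ratio, lung-recovered minus parental (vertical axis), of every measured probe set of the 11 genes past 2-fold (left) and of the 6 intracellular genes within 2-fold (right). Diamonds are the representative probe sets, circles the others, open symbols have 1 array at the floor and are bounds, and dashed lines mark 2-fold. The probe sets of Cxcl1, Nfkbiz and Csf1 lie on 1 side of 0, while those of Tnfaip2 and Nfkb2 lie on both.

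The promoters of the most different members show which of them carry the letters that NF-kB prefers. The sequences are the 250 bases before the start of each gene in RefSeq, GRCm38.p6, written in the direction of transcription. Il6 (chr5:30012864-30013113, plus strand), Cxcl1 (chr5:90890995-90891244, plus strand) and Saa3 (chr7:46715677-46715926, minus strand) were the lowest with an entry. Cxcl2 (chr5:90903649-90903898, plus strand) is the neighbour of Cxcl1 with the opposite sign. Csf1 (chr3:107760470-107760719, minus strand) and Tnfaip2 (chr12:111442411-111442660, plus strand) were the highest, and Nfkbia (chr12:55492648-55492897, minus strand) is the feedback gene. Capitals mark matches to the kappa-B consensus of 10 bases, searched on both strands with overlapping matches joined.
Il6: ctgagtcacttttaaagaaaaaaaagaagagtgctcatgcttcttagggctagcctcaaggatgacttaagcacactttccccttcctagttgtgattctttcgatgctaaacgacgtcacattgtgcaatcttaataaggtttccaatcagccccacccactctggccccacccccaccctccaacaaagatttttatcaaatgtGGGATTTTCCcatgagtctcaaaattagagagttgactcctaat
Cxcl1: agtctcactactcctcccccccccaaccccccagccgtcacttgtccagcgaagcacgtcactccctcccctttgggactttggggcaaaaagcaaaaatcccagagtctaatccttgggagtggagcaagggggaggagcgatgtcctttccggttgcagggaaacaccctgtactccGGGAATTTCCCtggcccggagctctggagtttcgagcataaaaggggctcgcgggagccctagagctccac
Saa3: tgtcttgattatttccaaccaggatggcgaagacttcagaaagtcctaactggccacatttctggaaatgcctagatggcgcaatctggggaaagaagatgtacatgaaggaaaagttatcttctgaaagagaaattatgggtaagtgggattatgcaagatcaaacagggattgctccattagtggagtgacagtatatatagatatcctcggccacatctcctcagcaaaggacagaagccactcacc
Cxcl2: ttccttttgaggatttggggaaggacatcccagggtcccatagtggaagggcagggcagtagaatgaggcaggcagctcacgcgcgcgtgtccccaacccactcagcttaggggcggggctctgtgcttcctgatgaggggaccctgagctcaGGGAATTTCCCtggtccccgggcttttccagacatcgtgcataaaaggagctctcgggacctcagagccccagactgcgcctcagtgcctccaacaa
Csf1: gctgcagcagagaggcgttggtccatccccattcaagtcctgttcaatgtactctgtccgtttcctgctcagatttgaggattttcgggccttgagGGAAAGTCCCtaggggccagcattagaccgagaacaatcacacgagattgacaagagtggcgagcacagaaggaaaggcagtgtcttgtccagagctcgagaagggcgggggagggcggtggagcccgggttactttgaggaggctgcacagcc
Tnfaip2: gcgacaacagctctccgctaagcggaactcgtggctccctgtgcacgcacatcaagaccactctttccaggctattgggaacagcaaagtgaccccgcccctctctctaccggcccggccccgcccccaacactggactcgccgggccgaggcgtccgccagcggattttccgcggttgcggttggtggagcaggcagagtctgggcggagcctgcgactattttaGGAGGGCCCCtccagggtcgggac
Nfkbia: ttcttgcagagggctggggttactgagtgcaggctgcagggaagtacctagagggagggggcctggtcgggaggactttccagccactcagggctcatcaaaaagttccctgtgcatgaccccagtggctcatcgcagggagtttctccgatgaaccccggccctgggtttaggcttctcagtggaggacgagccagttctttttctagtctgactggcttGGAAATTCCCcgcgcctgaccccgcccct

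The kappa-B match of Il6 was GGGATTTTCC, from 44 to 35 bases before the start. Cxcl1 and Cxcl2 carried the same run, GGGAATTTCCC, from 71 to 61 and from 97 to 87 bases before their starts, although their log2 ratios were -2.11 and 0.56. Csf1 and Tnfaip2, both higher, and Nfkbia each held a match as well, and the Saa3 window held none. The log2 ratio of Nfkbia was 0.03 by its representative probe set and 0.41 by the median over probe sets. Of the 42 members, 32 have an entry in the promoter table, and 14 of these 32 (43.8%) held a match in at least 1 window, compared with 8.23% of all 27025 genes in the table. By direction, a match was present for 2 of 5 members that were lower, 2 of 2 that were higher and 9 of 19 that were within 2-fold. The members were listed as NF-kB targets and related genes, so a share above that of all genes says nothing about these lines. A match is a run of letters and does not show binding in these cells.

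Upstream of these targets, 0 of 27 measured adaptor and kinase genes passed 2-fold in either direction, where 6.97% of all measured genes did, with ratios from -0.85 to 0.55 and a median of 0.03. The highest signal in this list was that of the kinase adaptor gene Tab2, at 10.42 and 10.36. Of 19 further inhibitors and subunits, 1 (5.26%) was higher, beside 4.42% of all measured genes, and 0 were lower, beside 2.55%. The higher one was Pdlim2 (8.59 and 9.68, 2.13-fold), whose product promotes degradation of Rela. The highest signal among the 19, that of Tax1bp1, a partner of A20, was 11.19 and 11.48.

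Of 25 measured receptors, 1 was at least 2-fold higher and 1 lower, 4.0% each way, beside 4.42% higher and 2.55% lower of all measured genes. Tlr4, the lipopolysaccharide receptor gene, read 8.64 and 7.14, 2.83-fold lower, and its other measured probe sets were 2.41-fold (8.36 and 7.09) and 2.39-fold (6.26 and 5.00) lower. Tlr4 and its co-receptor gene Cd14 were thus both lower. Csf1r, the receptor gene for Csf1, read 6.42 and 7.54, 2.17-fold higher, but its other probe sets gave log2 ratios of 0.78 and 0.02. The highest receptor signal was that of Tnfrsf12a, at 12.12 and 11.92.

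The other ligands held genes past 2-fold in both directions, and the further targets upward. Of 24 measured ligands outside the list of 42, 4 were past 2-fold upward and 3 downward, beside 4.42% and 2.55% of all measured genes. Their median was -0.06. Il7, which encodes a lymphocyte survival cytokine, read 5.37 and 7.96, 6.02-fold higher, and a dimmer probe set gave at least 2.16-fold. Il23a (4.09, below the floor, and 6.04) had a bound of 2.55-fold higher and Ppbp one of 2.73-fold. Of the 4 upward ligands, only Il7 was above the floor on both arrays, and the others were counted by bounds against the parental floor. Il15, a cytokine gene for natural killer and memory T cells, read 11.95 and 10.42, 2.89-fold lower, and Ccl8 and Il16 (6.54 and 5.40) were lower too. Other measured probe sets of Il16 gave a log2 ratio of -0.20 and a bound of at least 1.88-fold lower (5.50 and 4.58, below the floor). Under the higher floor at the 60th percentile, 11 ligands were measured, 1 higher and 1 lower. Of 21 further NF-kB targets, with a median of 0.23, 0 were lower, beside 2.55% of all measured genes, and 3 were higher, beside 4.42%. These were the immediate-early gene Egr1 (8.12 and 11.08, 7.78-fold), the adhesion gene Vcam1 (5.20 and 8.03, 7.11-fold) and the stress-response gene Gadd45b (9.45 and 11.29, 3.58-fold, and 1.40-fold by a dim probe set). The probe sets of Vcam1 differed widely. Another gave a bound of at least 16.6-fold higher (3.36, below the floor, and 8.74), and a further one was at the floor on both arrays (4.67 and 4.59). The highest signal of these targets, that of Ier3, was 11.54 and 10.97. Nfkbid stands in this list and in that of the inhibitors. All of the named genes have other inducers beside NF-kB.

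**Figure D4:**
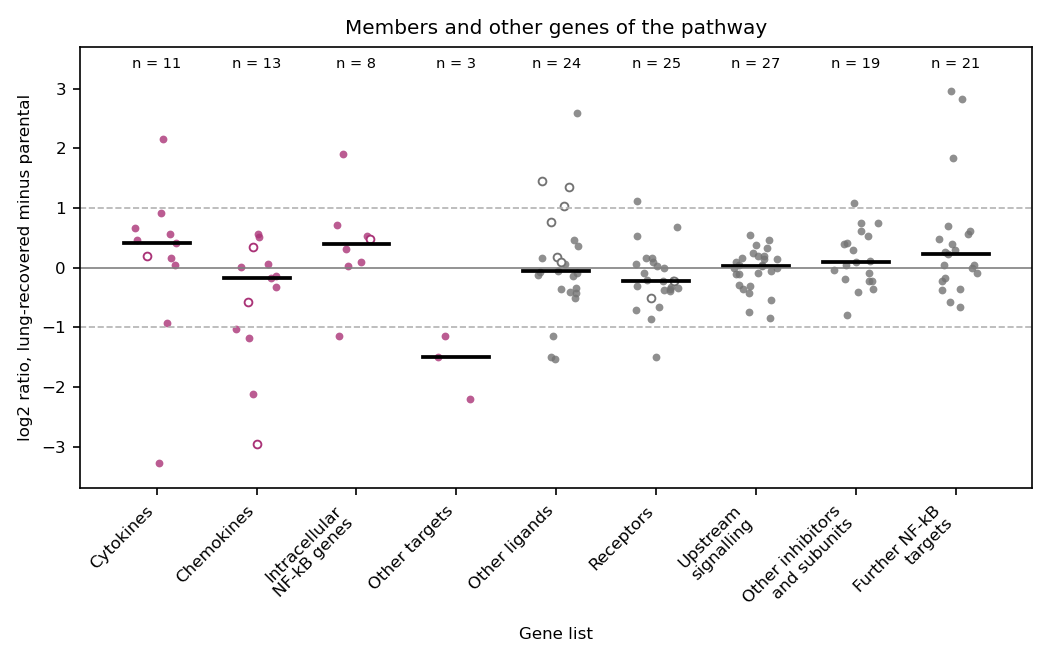
Log2 ratio, lung-recovered minus parental (vertical axis), of each measured gene in the 4 groups of members (purple) and the 5 lists of other pathway genes (grey). Open symbols have 1 array at the floor, bars are medians, dashed lines mark 2-fold and n is the number of measured genes. The upstream signalling genes all lie between -0.85 and 0.55, while cytokines and chemokines reach from -3.28 to 2.15.

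The cell type labels were read against markers. Cdh1 (12.66 and 12.52) and the keratin gene Krt19 (12.72 and 12.98, the highest signal of the list) were bright in both lines, as for an epithelial carcinoma, while 4 of the 14 markers of this list, the intestinal genes Vil1, Cdx1, Krt20 and Lgals4, were below the floor in both lines. The intestinal factor gene Cdx2 was above it in both by 1 probe set, at 5.24 and 5.08, and below it in both by the other, at 4.30 and 4.33. Cdh17, a gut cadherin gene, read 5.77 and 6.77, at the 2-fold limit. Of 15 leukocyte markers with a probe set, 8 were at the floor on both arrays, including Ptprc, Itgam, Adgre1 and Tyrobp, and Cd68 (5.23 and 7.05, 3.53-fold) was higher beside Csf1r. The other 5 measured, Laptm5, Lyz2, Fcer1g, Cd3e and Cd79a, had log2 ratios from -0.15 to 0.01, and the median of the 7 measured was 0. Of 11 fibroblast markers, 4 were measured, and 0 of these passed 2-fold, with the highest signal at 5.83 and 5.64 for Acta2. Among 5 measured endothelial markers Cdh5 (4.21, below the floor, and 9.30) was higher by at least 24.4-fold. Its other probe set (3.98, below the floor, and 5.52) gave a bound of only 1.78-fold. Tek (8.57 and 3.43, below the floor) was lower by at least 15.8-fold. Esam had the highest mean of both arrays, with 8.93 and 8.70, and Pecam1 was at the floor on both. Of 7 measured lung epithelial markers, Napsa was 4.14-fold lower (7.74 and 5.69) and Abca3 was highest, at 7.99 and 8.73. The part of such cells in the differences of cytokine genes was not tested.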

How the data were processed

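Total RNA from parental CMT-93 and lung-recovered CMT93-PM1 cells was labelled with biotin and hybridized to 1 array each. The deposited table holds log2 signals for 45037 probe sets. Base 2 was inferred from the range of values, MAS5 is named without its role in the submitters' processing notes, and scaling is not stated there. Array medians were 5.36 and 5.26 log2, and values were used as deposited. The number of arrays limits the precision of every value.

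Probe sets with 1 symbol in the platform annotation (34945, with 932 having several and the rest unlisted and unnamed) were updated by Entrez identifier to GRCm38.p6 symbols. Each gene took its probe set with the highest mean, each array was floored at its 40th percentile, and genes were counted at 2-fold or more. Against a floor, "at least" marks a bound. Calculations used Python 3.11.15, pandas 2.3.3, numpy 2.4.6 and statsmodels 0.14.6, and were tested on simulated data. No test between conditions was possible with 1 array a group.

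Named are all members, from each further list up to 3 genes past 2-fold in each direction and the highest signal, and some others picked with their values known. These are Cxcl3, Pf4, Ccl11 and Ccl12 as neighbours, Cdh1, Cdx2, the leukocyte markers within 2-fold and the markers at the floor. Members, lists and rules were chosen with earlier results of these data known. Alternatives were 3 scalings, 3 floor settings, 2 probe set choices and folds of 1.5 and 3.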

Additional observations from a re-analysis of the deposited data

How the results depend on the processing

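No member past 2-fold changed sign under any scaling, floor or probe set alternative that measured it. With all probe sets, 10 or 11 of the 11 kept 2-fold, the exception being Cxcl15 after scaling to equal medians, which moved the median of all genes to 0.10, and by the median over probe sets. Scaling to equal medians gave 3 higher and 8 lower members, the added one being Il1rn at a log2 ratio of 1.01. When probe sets named with _s, _x or _a were left out, 1 member was higher in place of 2, since Csf1 has no others, and 7 were lower, since Saa3 and Lcn2 have no others either. At 1.5-fold 5 of 35 members were higher, a share near the 11.5% of all measured genes, and at 3-fold 4 were lower. The intracellular median was 0.20 with the floor at the 60th percentile, where 6 of these genes were measured, and the secreted median was -0.08 there, on the other side of 0 from its reported value. The difference between both medians ranged from -0.48 without suffixed probe sets to -0.28 with that floor. The chemokine median ranged from -0.60 to -0.08 and the cytokine median from 0.28 to 0.51. The ligand list outside the members had a median between -0.36 and 0.04. The cause of these shifts was not tested beyond the members lost. Dim genes such as Il6, Ccl2 and Nfkbie depend on the floor for the size of their ratios.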
